A study of Homo sapiens with 3 samples.

Results

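The genes described here are 10 heat shock proteins and cochaperones: HSPA1A, HSPA1B, HSPA8, HSP90AA1, HSP90AB1, HSPH1, DNAJB1, DNAJA1, HSPB1 and HSPD1. They were chosen by symbol among the 58735 features of each library, and each symbol matched 1 feature. Levels are in CPM, which are counts scaled to a fixed library total. Averaged over the libraries, all 10 genes reached 10 CPM, the level from which a gene was taken as measured, as 8143 genes were. All 10 are annotated as protein-coding.

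FaDu is an established human cell line from a squamous carcinoma of the hypopharynx. TPF stands for paclitaxel, cisplatin and 5-fluorouracil given together. Cinobufotalin is a bufadienolide, a steroid of toad venom, a class known for binding the sodium-potassium ATPase. Single-cell RNA was read from 3 cultures, 1 library each: a TPF-resistant FaDu subline given TPF and cinobufotalin (resistant TPF cinobufotalin), the same subline given TPF (resistant TPF), and FaDu cells given cinobufotalin without TPF (FaDu cinobufotalin). Each library therefore came from drug-exposed cells of FaDu origin, and FaDu cells without drug were not analysed here. Doses, exposure times and whether the resistant subline is 1 clone were not given in the sources used here. The resistant TPF cinobufotalin and resistant TPF libraries differ in cinobufotalin alone as labelled. Either of them differs from the FaDu cinobufotalin library in both the line and the TPF given, and from it the resistant TPF library also differs in cinobufotalin, so these factors cannot be told apart.

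In the order resistant TPF cinobufotalin, resistant TPF and FaDu cinobufotalin, 7525, 4862 and 6123 cells were kept, with 134802289, 135176387 and 165847771 unique molecular identifiers (UMIs). Their median UMIs per cell were 17867, 27920.5 and 24440. The kept cells shared 9 to 13 barcodes between any pair of libraries. All 11 squamous epithelial markers were measured, with a summed level of 4382, 5607 and 7503 CPM. No fibroblast (of 10), immune (of 14) or erythroid (of 6) marker reached a mean of 10 CPM, and the only endothelial marker (of 9) to do so was ERG, with 24.9, 20.1 and 9.54 CPM. MALAT1, a nuclear noncoding RNA, took a median of 0.731%, 0.795% and 0.0892% of a cell's UMIs, so that the FaDu cinobufotalin library stood apart. With 1 library per group there is no replicate, no test between groups was made, and every interval below is a 95% interval for counting error only.

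Heat shock proteins are molecular chaperones that bind unfolded or unstable proteins and help them fold, assemble or be degraded. HSP70 proteins (HSPA1A, HSPA1B, HSPA8) take up short unfolded stretches, J-domain proteins (DNAJB1, DNAJA1) bring clients to them and start their ATP hydrolysis, and HSPH1 exchanges their nucleotide. HSP90 (HSP90AA1, HSP90AB1) acts later on clients such as kinases and steroid receptors, HSPB1 is a small heat shock protein that holds unfolded proteins without ATP, and HSPD1 is the chaperonin of the mitochondrial matrix. HSF1, the main heat shock factor, activates many of these genes in stressed cells by binding repeats of the unit nGAAn in their promoters. Raised chaperone levels are common in carcinomas.

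The promoters of the members are shown because the shared response of these genes is read from such repeats. The sequences are RefSeq promoters of GRCh38.p14, written 5′ to 3′ on the strand of the gene, with the searched motif in capitals. HSPA1A and HSPA1B are neighbours that encode nearly the same protein. In the 249 bases compared before their starts 235 were identical, 94.4%. Each window holds GAANNTTC once, 106 bases before the start of HSPA1A (window chr6:31815293-31815463, plus strand) and 105 bases before that of HSPA1B (chr6:31827489-31827659, plus strand).
HSPA1A: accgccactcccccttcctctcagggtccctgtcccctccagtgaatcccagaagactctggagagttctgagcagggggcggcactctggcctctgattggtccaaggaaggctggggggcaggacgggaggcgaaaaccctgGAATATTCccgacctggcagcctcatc
HSPA1B: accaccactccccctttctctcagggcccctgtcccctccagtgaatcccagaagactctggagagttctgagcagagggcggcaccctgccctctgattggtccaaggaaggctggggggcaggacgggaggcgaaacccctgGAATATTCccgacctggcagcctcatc

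The longer motif has 3 units, GAA and TTC in turn with NN between neighbours, starting with either. It was found within 250 bases before a start in 4 of the 10 members, HSPA8, HSP90AA1, HSP90AB1 and HSPD1, and in 0.557% of 27305 genes with a promoter in the table. The motif of 2 units, GAANNTTC, which reads the same on both strands and lies inside the longer one, was found in 9 of 10 members, all but HSPH1, and in 7.05% of genes. Genes with several starts had more chances to hold a motif, among them HSP90AA1 and HSPD1 with 2 starts and HSP90AB1 and DNAJB1 with 3. Both strands were searched, and a match of letters describes the window and is not a bound site. The windows of 30 bases below lie at chr11:123062171-123062200 (HSPA8, minus strand), chr14:102087112-102087141 (HSP90AA1, minus), chr6:44247822-44247851 (HSP90AB1, plus), chr2:197500061-197500090 (HSPD1, minus), chr19:14518456-14518485 (DNAJB1, minus), chr9:33025064-33025093 (DNAJA1, plus) and chr7:76302480-76302509 (HSPB1, plus).
HSPA8: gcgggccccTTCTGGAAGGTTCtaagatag
HSP90AA1: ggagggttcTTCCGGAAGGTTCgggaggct
HSP90AB1: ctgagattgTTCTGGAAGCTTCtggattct
HSPD1: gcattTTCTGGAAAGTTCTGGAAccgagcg
DNAJB1: cgggcggggcgGAAGGTTCtggagggggct
DNAJA1: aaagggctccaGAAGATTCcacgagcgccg
HSPB1: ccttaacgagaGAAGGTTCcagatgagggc
The first 4 hold the motif of 3 units, of which HSPD1 has overlapping matches over 18 bases, and the last 3 hold the motif of 2 units. For each gene 1 window is printed. Further matches of 3 units begin 230 bases before the start of HSPA8 and 165 before that of HSP90AB1. DNAJB1 has another match of 2 units 47 bases before the same start. Of the other letters searched, chosen after the first motif had been counted, TATAAA was found in HSPA1A and HSPA1B alone of the members and in 8.38% of genes. CCAAT or ATTGG was found in 5 members, HSPA1A, HSPA1B, HSPA8, HSP90AA1 and DNAJB1, and in 37% of genes.

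The levels below are CPM of UMIs summed over the cells of a library, each followed by its exact Poisson interval. They are not divided by transcript length, so levels of different genes are not ranked. The cytosolic HSP90 genes come first. HSP90AA1 (ENSG00000080824, chromosome 14 from 102080738 to 102139699, GRCh38), known as the stress-inducible form, stood at 1582 CPM (1576 to 1589) in the resistant TPF cinobufotalin library, 1712 CPM (1705 to 1719) in the resistant TPF library and 1479 CPM (1473 to 1485) in the FaDu cinobufotalin library. HSP90AB1 (ENSG00000096384, chromosome 6 from 44246166 to 44253888), the constitutive form, stood at 1436 (1429 to 1442), 1359 (1352 to 1365) and 839 (834 to 843) CPM in the same order. The resistant libraries were thus close to each other for HSP90AB1 and well above the FaDu cinobufotalin library, while HSP90AA1 differed little between all 3. The count of HSP90AA1 over that of HSP90AB1 was 1.10, 1.26 and 1.76. A processed copy, HSP90AB3P, was listed at 5.11, 4.90 and 2.21 CPM, and how the counting divided reads between such copies and the gene was not specified in the sources used here.

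Of the HSP70 genes, HSPA8 (ENSG00000109971, chromosome 11 from 123057489 to 123063230), the constitutive cytosolic form, stood at 291 CPM (288 to 294) in the resistant TPF cinobufotalin library, 362 CPM (358 to 365) in the resistant TPF library and 375 CPM (372 to 378) in the FaDu cinobufotalin library. It was lowest with TPF and cinobufotalin together. HSPA1A (ENSG00000204389, chromosome 6 from 31815464 to 31817946), an inducible form, stood at 80.0 (78.5 to 81.6), 99.4 (97.8 to 101) and 85.2 (83.8 to 86.6) CPM in the same order, and HSPA1B (ENSG00000204388, chromosome 6 from 31827735 to 31830255), the other inducible form, at 62.8 (61.5 to 64.1), 63.8 (62.4 to 65.1) and 53.3 (52.2 to 54.4) CPM. The annotated transcripts of this pair share 70.4% (HSPA1A) and 69.3% (HSPA1B) of their runs of 90 bases, but 14.6% and 0% within the last 500 bases, where 3′ libraries place most reads. Their sum, which no division of reads between them can move, was 143, 163 and 138 CPM. Any reads left uncounted because they match both genes would be missing from it. HSPA1A made up 56.0%, 60.9% and 61.5% of that sum. HSPA6, a strictly stress-inducible HSP70 of human cells and no member here, was listed at 0.208, 0.141 and 0.265 CPM.

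HSPH1 (ENSG00000120694, chromosome 13 from 31134974 to 31162388), the nucleotide exchange partner of HSP70, stood at 131 CPM (129 to 133) in the resistant TPF cinobufotalin library, 143 CPM (141 to 145) in the resistant TPF library and 61.8 CPM (60.6 to 63.0) in the FaDu cinobufotalin library. Both resistant libraries were above 2 times the FaDu cinobufotalin level. Of the J-domain genes, DNAJB1 (ENSG00000132002, chromosome 19 from 14514770 to 14529770), which serves HSP70 in stressed cells, stood at 101 (99.1 to 102), 122 (120.2 to 124) and 85.9 (84.5 to 87.3) CPM, and DNAJA1 (ENSG00000086061, chromosome 9 from 33025211 to 33039907), which carries a farnesyl anchor, at 199.5 (197 to 202), 251 (248 to 254) and 152 (150.3 to 154) CPM in the same order. Both were highest in the resistant TPF library and lowest in the FaDu cinobufotalin library. DNAJB1 overlaps TECR on the other strand (mean 81.1 CPM), and the use of strand in counting was not specified, so reads of these genes may be mixed.

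HSPB1 (ENSG00000106211, chromosome 7 from 76302544 to 76304295), the small heat shock protein also called HSP27, stood at 342 CPM (339 to 345) in the resistant TPF cinobufotalin library, 337 CPM (334 to 340.5) in the resistant TPF library and 369 CPM (366 to 372) in the FaDu cinobufotalin library. HSPD1 (ENSG00000144381, chromosome 2 from 197486581 to 197516737), the mitochondrial chaperonin, stood at 348 (345 to 352), 376 (373 to 379) and 185 (183 to 187) CPM in the same order. HSPE1, which encodes the lid that caps HSPD1 and lies head to head with it on the other strand, stood at 766, 664 and 769 CPM. The FaDu cinobufotalin library was therefore about as high as the resistant TPF cinobufotalin library in the lid, and lowest in the chaperonin. HSPD1 and HSPE1 overlap in the annotation, with the same limit on strand. The sum of the 10 members was 4574, 4825 and 3685 CPM.

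**Figure D1:**
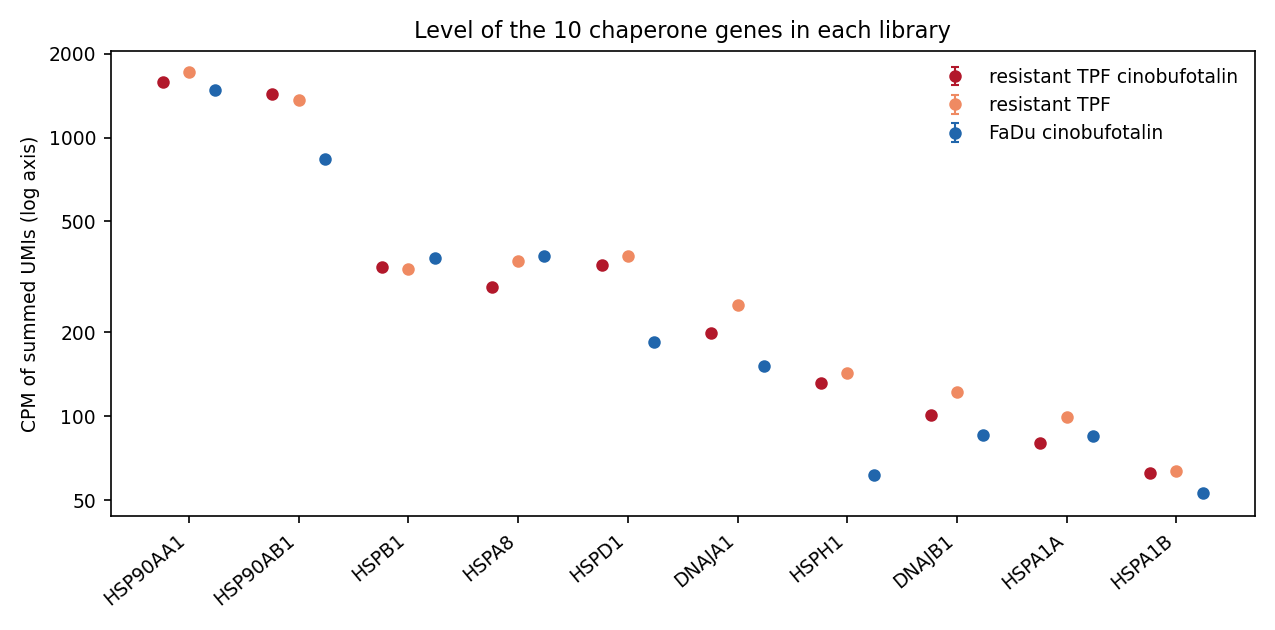
CPM of summed UMIs (log axis) of each of the 10 genes in the 3 libraries, with exact Poisson 95% bars that are mostly hidden by the points. HSP90AB1, HSPD1, HSPH1 and DNAJA1 are visibly lower in the FaDu cinobufotalin library, at 839, 185, 61.8 and 152 CPM, and the other 6 lie closer together.

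What cinobufotalin added to TPF in resistant cells is read from the pair of resistant libraries, as resistant TPF cinobufotalin over resistant TPF. The members differed little: 0 of 10 were 1.5-fold apart, beside 0.246% of measured genes (0.0737% higher by that fold and 0.172% lower). For all 10 the counting interval excluded a 1.5-fold difference. The lowest log2 ratios were those of DNAJA1 (-0.33, -0.35 to -0.31), HSPA8 (-0.32, -0.33 to -0.30), HSPA1A (-0.31, -0.35 to -0.28) and DNAJB1 (-0.28, -0.31 to -0.24), which are folds of 0.795, 0.804, 0.805 and 0.826. HSPH1 (-0.12), HSP90AA1 (-0.11) and HSPD1 (-0.11) lay nearer to the median measured gene, at -0.06. HSP90AB1 (0.08), HSPB1 (0.02) and HSPA1B (-0.02) were nearly level, and the interval of HSPA1B, -0.07 to 0.02, held 0. Below 0 lay 8 of 10 members and 63.9% of measured genes, and the median of the members was -0.12. With TMM factors HSPA1B alone changed sign, to 0.03. The 4 lowest members lay between the 5.91 and the 10.02 percentile of measured genes, near the lower end of this pair though within 1.5-fold. Each of these 4 was below 0 in all 14 settings tried.

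The resistant TPF library over the FaDu cinobufotalin library compares the lines as well as the drugs. At least 1.5-fold higher were 4 of 10 members, beside 35% of measured genes, and 0 of 10 were as much lower, beside 2.01%. The share of members was thus near the background. They were HSPH1 (log2 ratio 1.21, 1.18 to 1.24), HSPD1 (1.02, 1.00 to 1.04), DNAJA1 (0.72, 0.70 to 0.74) and HSP90AB1 (0.70, 0.69 to 0.71). DNAJB1 followed at 0.51, HSPA1B at 0.26, HSPA1A at 0.22 and HSP90AA1 at 0.21, and HSPA8 (-0.05) and HSPB1 (-0.13) were slightly lower. The median of the members was 0.38 and that of all measured genes 0.37.

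The median of all genes moves with the scaling. With TMM factors, which assume that most genes are level, it was -0.20 in place of 0.37 for this pair and -0.21 in place of 0.31 for resistant TPF cinobufotalin over FaDu cinobufotalin. The ratios are therefore also given relative to the median gene, which no scaling can move. On that scale HSPH1 stood 0.84 above the median gene and HSPD1 0.65 above in the resistant TPF library over the FaDu cinobufotalin library, DNAJA1 0.35 and HSP90AB1 0.32 above, and DNAJB1 0.14 above. Below the median gene were HSPA1B (-0.11), HSPA1A (-0.15), HSP90AA1 (-0.16), HSPA8 (-0.43) and HSPB1 (-0.50). With TMM factors HSPA1A, HSPA1B, HSP90AA1 and DNAJB1 change sign to -0.35, -0.31, -0.36 and -0.06, HSPH1 alone is 1.5-fold higher (0.64), and HSPA8 (-0.62) and HSPB1 (-0.70) are 1.5-fold lower. HSP90AB1, DNAJA1 and HSPD1 keep their sign at 0.13, 0.15 and 0.45.

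The remaining pair, resistant TPF cinobufotalin over FaDu cinobufotalin, shares the FaDu cinobufotalin library with the comparison above. Its values are given beside them without a count of agreement. At least 1.5-fold higher were 3 of 10 members, beside 32.6% of measured genes, and 0 of 10 were as much lower, beside 4.14%. They were HSPH1 (1.09, 1.05 to 1.12), HSPD1 (0.91, 0.89 to 0.93) and HSP90AB1 (0.78, 0.77 to 0.79), which is 0.78, 0.60 and 0.46 above the median gene. DNAJA1 stood at 0.39, HSPA1B at 0.24, DNAJB1 at 0.23, HSP90AA1 at 0.10, HSPA1A at -0.09, HSPB1 at -0.11 and HSPA8 at -0.37. With TMM factors 0 of 10 are 1.5-fold higher, HSPA1A (-0.61), HSPA8 (-0.89) and HSPB1 (-0.63) are 1.5-fold lower, and HSPA1B (-0.28), DNAJB1 (-0.29), HSP90AA1 (-0.42) and DNAJA1 (-0.13) change sign, while HSPH1 (0.57), HSPD1 (0.39) and HSP90AB1 (0.26) do not. The median of the members was 0.23 and that of all measured genes 0.31.

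**Figure D2:**
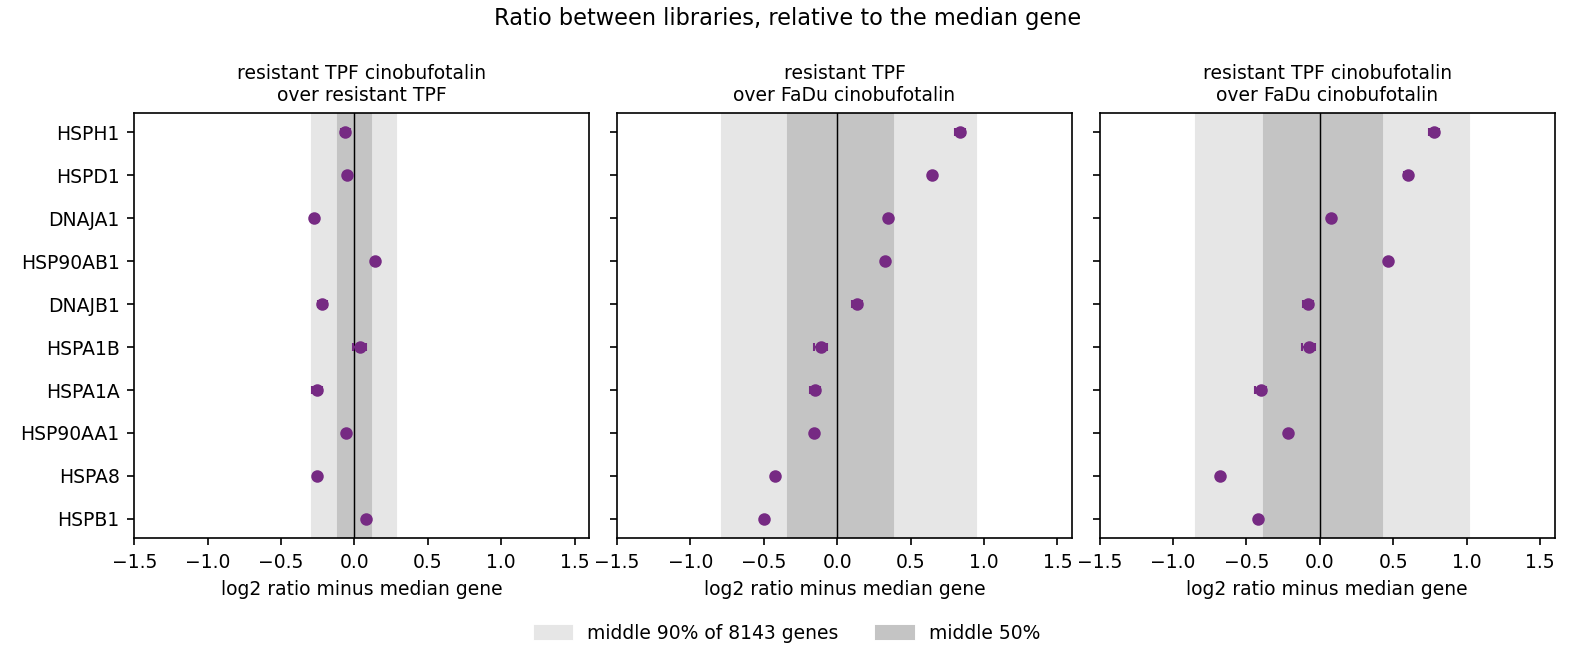
Log2 ratio of each member minus that of the median measured gene for the 3 pairs of libraries, with 95% counting intervals, over bands that hold the middle 50% and 90% of 8143 genes. All members lie inside the 90% band in each pair, with HSPH1 0.84 and 0.78 above the median gene in the pairs over the FaDu cinobufotalin library.

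Genes with a longer genomic span were higher in the resistant libraries as a whole, and MALAT1 was higher with them. In the resistant TPF library over the FaDu cinobufotalin library the median log2 ratio was -0.01 for genes under 3 kb, 0.07 from 3 to 10 kb, 0.18 from 10 to 20 kb, 0.37 from 20 to 50 kb and 0.67 above. Against the median of genes of its own span, HSPH1 (27.4 kb) stood 0.84 higher, HSPD1 (30.2 kb) 0.65 higher, HSP90AB1 (7.72 kb) 0.62 higher and DNAJA1 (14.7 kb) 0.54 higher. HSP90AA1, the member with the longest span at 59.0 kb, stood 0.46 below its span class (-0.46), and the short genes HSPA1A and HSPA1B stood 0.23 and 0.27 above theirs. HSPB1 (1.75 kb), of the same class, stood at -0.12 against it and HSPA8 (5.74 kb) at -0.13, and DNAJB1 (15.0 kb) stood 0.32 above its own. Among cells matched on their MALAT1 share the ratio of HSPH1 was 1.18, 0.99 and 1.00 for cells at 0.05% to 0.2%, 0.3% to 1% and 1% to 2% MALAT1, and that of HSPD1 0.77, 0.91 and 0.81. The other members past 1.5-fold over all cells did not both keep that size. HSP90AB1 stood at 0.50, 0.48 and 0.50, under 1.5-fold in each set, and DNAJA1 at 0.49, 0.59 and 0.64, under it in the first. The median measured gene was itself lower in these sets, at 0.18, 0.24 and 0.22, beside 0.37 over all cells. Both genes stayed above it in each set. The ratio of HSPA1A was -0.35, -0.03 and 0.09 in these sets, and that of HSPA1B -0.14, -0.06 and -0.03, beside 0.22 and 0.26 over all cells. The sets held 285, 1706 and 1082 cells of the resistant TPF library and 1063, 881 and 301 of the FaDu cinobufotalin library. The part of span and of MALAT1 in the ratios was otherwise not tested.

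Within each library HSPA1A was higher at the upper end of the MALAT1 share of the cell, while HSPB1 fell along it up to 2%. HSPA1A stood at 52.4 CPM in the resistant TPF cinobufotalin cells with under 0.05% MALAT1 and at 115 CPM in those with at least 2%. Resistant TPF cells had 64.0 and 137 CPM in these classes, and FaDu cinobufotalin cells 71.3 and 151 CPM. HSPA1A was thus over 2 times as high at the upper end in all 3 libraries. HSPB1 stood at 551 CPM in cells with under 0.05% MALAT1 and at 274 CPM in those with 1% to 2% in the resistant TPF cinobufotalin library, at 473 and 284 CPM in the resistant TPF library, and at 412 and 295 CPM in the FaDu cinobufotalin library. Above 2% it was higher again, at 319, 353 and 434 CPM. In the FaDu cinobufotalin library that is above the 412 CPM of the lowest class. Spearman's rho of the thinned HSPB1 count with the MALAT1 share was -0.24, -0.14 and -0.18 over cells, the lowest of any member in each library. Cells of 1 library share their preparation, and these are descriptions.

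The rest of the chaperone network was read from lists of genes by role, each beside the 35% of measured genes that were at least 1.5-fold higher in the resistant TPF library over the FaDu cinobufotalin library. With TMM factors every ratio moves down with the median gene, which stands at -0.20 in place of 0.37, and 8.46% of genes are then 1.5-fold higher and 21.5% lower, so the counts below hold for CPM. Of 8 measured HSP70 relatives and exchange factors 5 were higher and 0 lower, with a median of 0.70. HSPA14 is listed under 2 IDs, and the first in the files, under the measured level, was used. With the other ID, at 17.7, 19.3 and 17.5 CPM, 5 of 9 were higher and the median was 0.65. The higher genes included HSPA4 (82.6, 92.1 and 42.6 CPM; log2 ratio 1.11), an HSP110 relative of HSPH1, BAG5 (1.02), HSPA2 (0.86) and BAG1 (0.75). BAG3, the exchange factor that HSF1 induces, stood at 42.6, 47.5 and 41.1 CPM (0.21). Of 11 J-domain genes 6 were higher and 0 lower, with a median of 0.67. The higher ones were led by DNAJB4 (1.34), DNAJC9 (1.11), DNAJA2 (1.00), a relative of DNAJA1, and DNAJB14 (0.79). Of 16 genes listed as HSP90 cochaperones 5 were higher and 0 lower, with a median of 0.42. FKBP5 (1.36), an immunophilin of steroid receptor complexes, AHSA2P (0.95), a pseudogene by its symbol, CHORDC1 (0.91) and the cyclophilin PPID (0.86) led. STIP1, which hands clients on to HSP90, stood at 55.5, 59.2 and 43.3 CPM (0.45).

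Of 12 mitochondrial chaperones and proteases 2 were higher, HSPA9 (218, 237 and 118 CPM; 1.00), the HSP70 of the matrix, and CLPX (0.81), an unfoldase of the matrix, 0 were lower and the median was 0.08, under that of all genes. HSPE1 stood at -0.21. Of 16 endoplasmic reticulum genes 6 were higher and 0 lower with a median of 0.49, led by DNAJC3 (1.20), HSPA5 (215, 221 and 98.4 CPM; 1.16), the HSP70 of that compartment, DNAJC10 (1.08) and CANX (0.73). Of 14 subunits of the cytosolic chaperonin TRiC and its partner prefoldin 4 were higher, among them CCT6A (1.06), CCT5 (0.78) and CCT3 (0.72), and 1 was lower, the prefoldin subunit PFDN4 (83.3, 88.0 and 140.2 CPM; -0.67). Of the 9 other genes listed as small heat shock proteins HSPB11 alone was measured, at 460.4, 401 and 285 CPM (0.50). It was listed by its symbol, and whether its product acts as a chaperone was not examined. CRYAB was at 1.81, 1.47 and 1.63 CPM.

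HSF1, the factor named above, stood at 30.0 CPM in the resistant TPF cinobufotalin library, 38.6 CPM in the resistant TPF library and 49.1 CPM in the FaDu cinobufotalin library. Its log2 ratio was -0.36 (-0.42 to -0.30) between the resistant libraries and -0.35 (-0.40 to -0.30) for resistant TPF over FaDu cinobufotalin. For resistant TPF cinobufotalin over FaDu cinobufotalin it was -0.71 (-0.77 to -0.66), past 1.5-fold. HSF2, a second heat shock factor, was just under the measured level at 9.96, 9.98 and 7.30 CPM. EP300 (0.98), an acetyltransferase, and SIRT1 (0.96), a deacetylase, both of which act on HSF1 protein, were the 2 of 8 measured factors and regulators at least 1.5-fold higher in the resistant TPF library over the FaDu cinobufotalin library, 0 were lower and the median was 0.27. The level of HSF1 RNA does not show the activity of the protein, which was not measured.

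Of 12 measured genes that respond to heat shock beside the chaperones 6 were higher in the same pair and 0 lower, with a median of 0.63, among them GADD45B (110.1, 139 and 49.7 CPM; 1.49), ATF3 (1.17), HMOX1 (1.15), which degrades haem, and RSRC2 (0.86). FAM46A, also of this list, was not matched to a feature by that symbol. Of 19 immediate early genes, which answer growth factors and handling stress, 5 were higher and 2 lower with a median of 0.24, and JUN (338, 387 and 96.4 CPM; 2.01), ARC (1.39), FOS (1.33) and ATF3 (1.17) led. Between the resistant libraries 1 gene of these lists was 1.5-fold apart, the immediate early gene ARC, with 19.7 CPM in resistant TPF cinobufotalin cells against 34.5 CPM in resistant TPF cells (-0.81, -0.88 to -0.74). In that pair the median was below 0 in 9 of the 10 lists other than the members, the exception being the lone HSPB11 (0.20). The median measured gene was itself at -0.06 with 63.9% of genes below 0, and the endoplasmic reticulum genes (-0.05) and the factors and regulators (-0.02) lay above it. For resistant TPF cinobufotalin over FaDu cinobufotalin, where the background is 32.6%, 4 of 8 HSP70 relatives, 4 of 11 J-domain genes and 5 of 16 HSP90 cochaperones were higher. So were HSPB11 (0.69), 2 of 12 mitochondrial, 6 of 16 endoplasmic reticulum and 1 of 14 TRiC and prefoldin genes. The count was 2 of 8 for factors and regulators, 5 of 12 for the other response genes and 4 of 19 for immediate early genes. Lower were PFDN4 (-0.75), HSF1 and 3 immediate early genes.

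Cell cycle phases were called from S and G2/M gene lists that hold no member. Called G1 were 16.4%, 17.9% and 31.5% of cells of the resistant TPF cinobufotalin, resistant TPF and FaDu cinobufotalin libraries. Called S were 28.0%, 29.8% and 12.9%. HSPB1 was lower in cells called S than in those called G1 in all 3 libraries: 290.1 against 410.5 CPM, 305 against 386 CPM and 319 against 408 CPM, which are log2 ratios of -0.50, -0.34 and -0.35. It was also lower in cells called G2/M (-0.23, -0.18 and -0.19). HSPD1 went the other way, with G2/M over G1 at 0.28, 0.30 and 0.13 and S over G1 at 0.25, 0.18 and 0.37. For G2/M over G1 so did HSP90AB1 (0.20, 0.17 and 0.10) and HSPH1 (0.25, 0.25 and 0.07). HSP90AA1 (0.08, 0.19 and 0.11) and HSPA8 (0.10, 0.01 and 0.12) were also above 0 in each library. HSPA1B (-0.23, -0.16 and 0.005) and DNAJA1 (0.07, -0.01 and 0.10) were not. How all genes moved between phases was not examined. HSPA1A was lower in cells called G2/M than in G1 in the resistant libraries (-0.27 and -0.33) and a little higher in the FaDu cinobufotalin library (0.09). DNAJB1 differed little between G2/M and G1, by 0.04, 0.01 and 0.01. Within each phase alone HSPH1 and HSPD1 remained at least 1.5-fold higher in both resistant libraries over the FaDu cinobufotalin library. HSP90AB1 was under 1.5-fold among cells called S for resistant TPF over FaDu cinobufotalin (0.53).

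**Figure D3:**
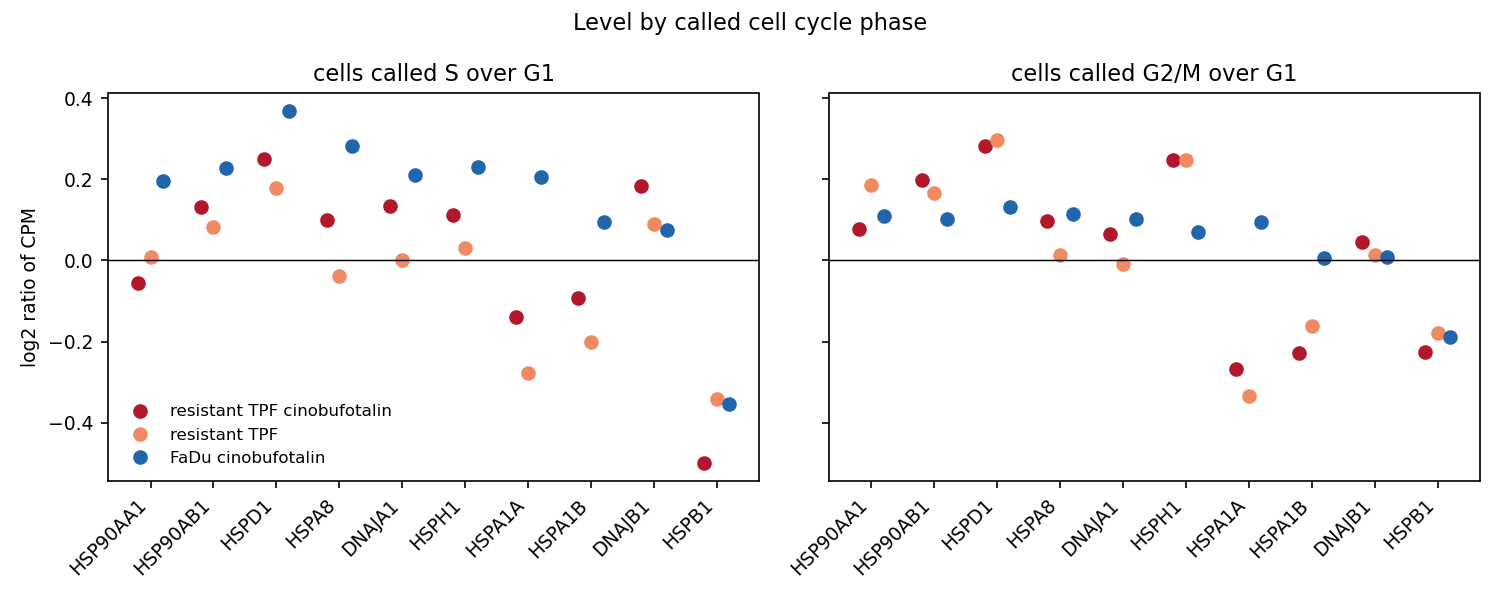
Log2 ratio of CPM between cells called S and G1 (left) and between cells called G2/M and G1 (right) for each member in the 3 libraries. HSPB1 lies below 0 in every library in both panels, from -0.18 to -0.50, and HSPD1 above 0, from 0.13 to 0.37.

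To compare single cells at 1 depth, those with at least 10000 UMIs were thinned to 10000, which kept 6320, 4540 and 5836 cells and left out 1205, 322 and 287. HSP90AA1 had a median of 13, 14 and 12 UMIs per thinned cell and HSP90AB1 of 12, 12 and 7. The 10th and 90th percentiles of HSP90AB1 were 5 and 25 UMIs in the resistant TPF cinobufotalin cells, 5 and 23 in the resistant TPF cells and 3 and 15 in the FaDu cinobufotalin cells, so the cells of the libraries overlapped widely. HSPH1 had a median of 1, 1 and 0 UMIs and HSPD1 of 3, 3 and 2. HSPA1A was the most uneven member. Its coefficient of variation beyond counting noise was 0.92, 1.00 and 0.93, against 0.42, 0.40 and 0.50 for DNAJA1, and its highest cell held 25, 29 and 21 UMIs where the mean was 0.806, 1.05 and 0.922. HSPB1, by this measure at 0.60, 0.60 and 0.59, and HSP90AA1, at 0.60, 0.62 and 0.56, lay between them.

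Correlations between members among cells of a library depend on how many UMIs the genes have. Pearson's r was taken on log2 of the thinned count plus 1, and the cells share their library and preparation, so r is a description. Over the 45 pairs the median r was 0.10, 0.11 and 0.09. An r of at least 0.3 was reached by 3, 3 and 1 pairs, and by 2, 1 and 0 with cells thinned to 5000 UMIs. HSP90AA1 with HSP90AB1 had the highest r in each library, at 0.50, 0.49 and 0.36. HSPD1 followed with HSP90AA1 (0.37, 0.37 and 0.24) and with HSP90AB1 (0.37, 0.35 and 0.27). HSPA8 with HSP90AA1 came next in the resistant libraries (0.28 and 0.28). In the FaDu cinobufotalin library that pair, at 0.21, was under HSPA8 with HSPD1 (0.23) and HSPA8 with HSP90AB1 (0.22). HSPA1A with HSPA1B had 0.22, 0.23 and 0.24 at a mean of about 1 UMI or less, in the last library about level with HSPD1 and HSP90AA1. DNAJB1 with HSPD1 stood at 0.04, 0.00 and 0.01, and pairs with HSPB1 ran from -0.06 to 0.18. Low values of r in sparse counts are held down by counting noise, and no finding is drawn from them.

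**Figure D4:**
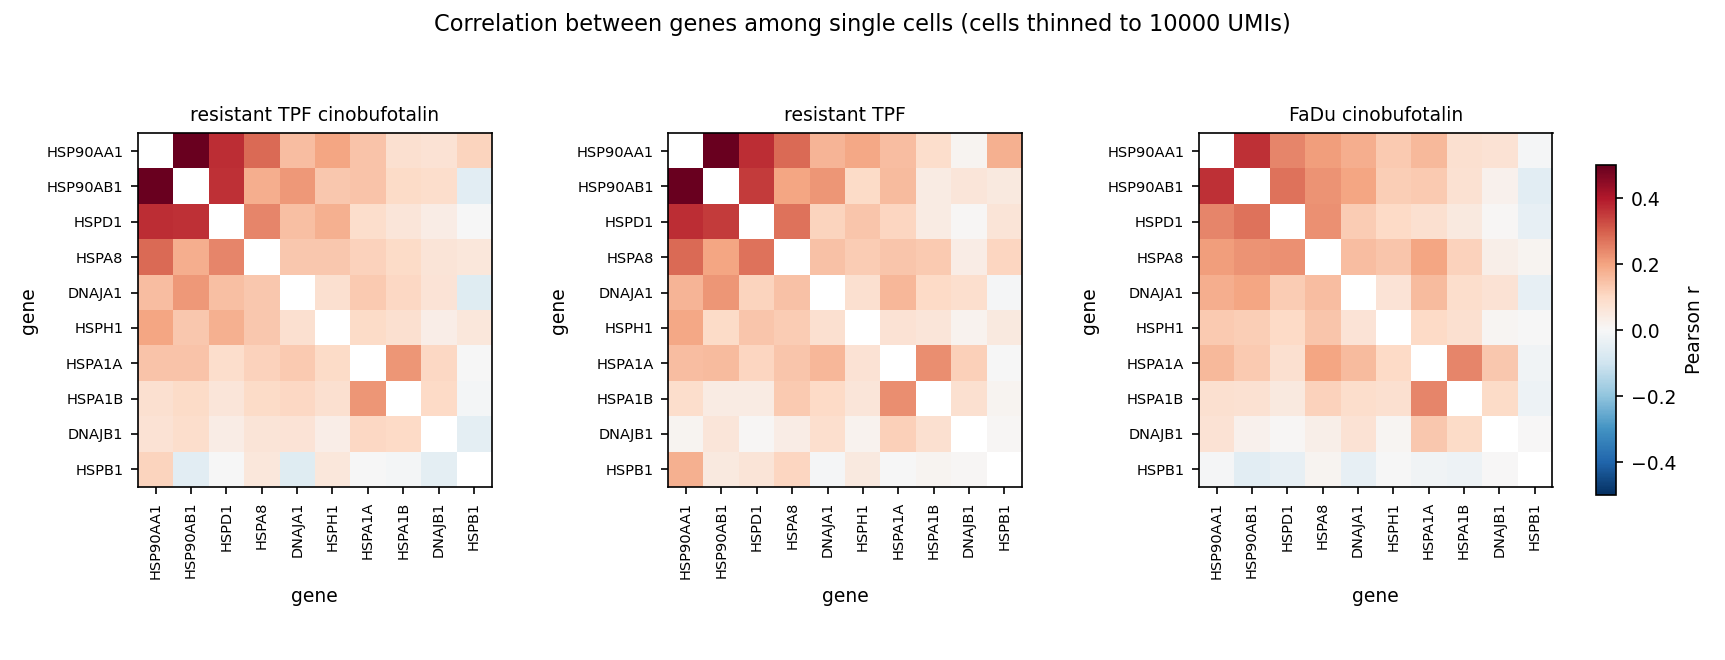
Pearson's r between the members among cells thinned to 10000 UMIs (6320, 4540 and 5836 cells), on a colour scale from -0.5 to 0.5 with the diagonal left blank. The block of HSP90AA1, HSP90AB1 and HSPD1 is darkest in all 3 libraries, at 0.36 to 0.50 for the HSP90 pair, and the row of HSPB1 runs from -0.06 to 0.18.

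The genes most like a member were named by the lowest r over the 3 libraries among 5699 genes that averaged 20 CPM or more, and members were then set aside. HSP90AB1 ranked above all of those for HSP90AA1, and HSP90AB1 and HSP90AA1 did so for HSPD1, with HSPA8 the fifth. Among non-members, HSP90AA1 was most like LDHB (lowest r 0.31), a lactate dehydrogenase subunit, PRDX1 (0.30), a peroxiredoxin, BTF3 (0.29), the TRiC subunit CCT5 (0.28) and HNRNPA2B1 (0.28). For HSPD1 the non-members were NPM1 (0.23), HNRNPA2B1 (0.23), the mitochondrial protein C1QBP (0.22), LDHB (0.21) and CCT5 (0.21). HSPB1 was most like S100A10 (0.20), GSTP1 (0.20), SH3BGRL3 (0.19), S100A6 (0.19) and ATP5F1E (0.19). For the sum of HSPA1A and HSPA1B they included MALAT1 (0.16), ACTG1 (0.14), HSPA5 (0.14) and TUBB4B (0.14), which are weak values at that depth. Of the members, DNAJA1 (0.15) ranked 3, HSP90AA1 9, HSPA8 11, HSP90AB1 12 and DNAJB1 (0.12) 16 of 5698 genes for that sum. HSPD1 ranked 94, HSPH1 101 and HSPB1 4517.

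A small set of cells was high in inducible HSP70. Cells whose thinned HSPA1A and HSPA1B sum was at least 4 times the mean of their library, from 6, 7 and 6 UMIs upwards, numbered 160 of 6320 in the resistant TPF cinobufotalin library, 99 of 4540 in the resistant TPF library and 165 of 5836 in the FaDu cinobufotalin library. That is 2.53% (2.16 to 2.95), 2.18% (1.78 to 2.65) and 2.83% (2.42 to 3.29) by exact binomial intervals, which overlap. These cells held 13.6%, 12.5% and 15.0% of the HSPA1A and HSPA1B UMIs. The class is a range of a continuous count, and 246, 117 and 250 cells lay within 20% of its limit. With a limit of 3 times the mean the shares were 4.81%, 3.61% and 5.41%, and with cells thinned to 5000 UMIs they were 2.29%, 3.18% and 6.05%, where the limit fell at 4, 4 and 3 UMIs, so no order of the libraries is read from them.

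The other members, which did not enter that choice, were higher in these cells too. The mean of HSP90AA1 was 1.58, 1.62 and 1.66 times that of the other cells in the order of libraries above, that of HSPH1 1.70, 1.51 and 2.01 times, and that of DNAJB1 1.44, 1.62 and 1.96 times. DNAJA1 (1.47, 1.61 and 1.65) and HSPA8 (1.48, 1.52 and 1.66) were alike, HSP90AB1 (1.31, 1.39 and 1.31) and HSPD1 (1.33, 1.30 and 1.26) were less raised, and HSPB1 (1.13, 1.19 and 1.16) least. All 8 other members were thus above 1 in all 3 libraries, beside 58.8%, 53.6% and 66.6% of 8141 measured genes. The median ratio of those genes was 1.06, 1.03 and 1.12, and 95% of them lay under 1.57, 1.72 and 1.77. Above that level were HSP90AA1 and HSPH1 in the resistant TPF cinobufotalin library, 0 members in the resistant TPF library, and HSPH1 and DNAJB1 in the FaDu cinobufotalin library. Technical measures moved with the class: the median mitochondrial share was 4.89%, 5.56% and 4.14% in the high cells, against 3.61%, 4.01% and 3.79% in the others, and the MALAT1 share 1.17%, 1.52% and 0.266%, against 0.740%, 0.799% and 0.0821%. High cells had fewer UMIs before thinning, with medians of 16414.5, 22274 and 19624 against 19338.5, 28683 and 25101. They were more often called G1, at 31.9%, 43.4% and 35.8% against 15.6%, 17.7% and 32.0%. They held 47.5, 54.9 and 59.9 UMIs of immediate early genes per thinned cell, against 36.5, 40.2 and 37.2. The part of these measures in the levels of the members was not tested.

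**Figure D5:**
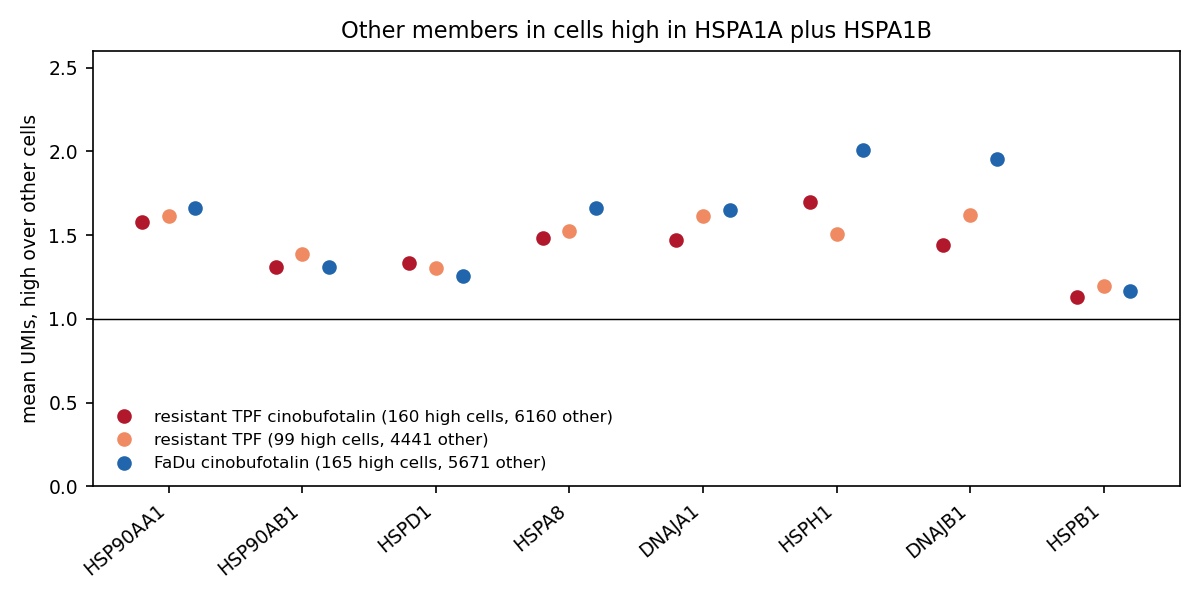
Mean thinned UMIs of each of the other 8 members in cells high in HSPA1A plus HSPA1B, divided by the mean in the other cells, for the 3 libraries. All points lie above the line at 1, with HSPH1 and DNAJB1 highest in the FaDu cinobufotalin library, at 2.01 and 1.96.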

How the data were processed

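Libraries were made with the 10x 3′ kit version 3.1 and sequenced on a NovaSeq, per the labels' protocols. The deposited values are whole-number counts of UMIs per gene and barcode, made by the authors with Cell Ranger 7.0 on hg38, per the submitters' processing notes. The annotation and the use of introns and strand were not given in the sources used here. A barcode was kept as a cell from 1000 UMIs and 500 genes upwards, with mitochondrial UMIs up to 20%. No doublet caller was run, and free RNA was not corrected for. The counts of kept cells were added up by library and expressed as CPM. Log2 ratios carry 95% Clopper-Pearson intervals, levels exact Poisson intervals. Both cover counting error only, and the calculation was tested on simulated data. With 1 library per group, a 1.5-fold limit took the place of a test.

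Phases were called with scanpy 1.11.5 (Python 3.11.15) on cells thinned to 5000 UMIs, and TMM factors came from edgeR 4.0.16. Positions are those of GENCODE on GRCh38, found by gene ID. Named genes were the 10 members, up to 4 genes of each list by the largest ratio past 1.5-fold or else the 2 most abundant, HSF1, HSF2, HSPE1, HSPA5, BAG3 and STIP1, and the 5 genes most like each of 4 anchors, of which 1 is not reported here. HSPA6, HSP90AB3P, CRYAB, MALAT1 and ERG were added after their values were seen. The members, lists and limits were chosen with earlier results of these data known. Span classes and the shorter motifs were chosen after seeing the data. Alternatives were other cell filters, scalings, depths, single phases and sets of cells with at least 10000 UMIs and 2% to 8% mitochondrial UMIs matched on MALAT1.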

Additional observations from a re-analysis of the deposited data

How the results depend on the processing

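No paired analysis was possible because each group holds 1 library. Between the resistant libraries 0 of 10 members were 1.5-fold apart under each of the 16 alternatives. For resistant TPF over FaDu cinobufotalin the count of 4 was 2 (HSPH1 and HSPD1) at a limit of 2-fold. It was also 2 (the same genes) among cells at 0.05% to 0.2% MALAT1. In those cells 18.8% of all genes were 1.5-fold higher, in place of 35%. For resistant TPF cinobufotalin over FaDu cinobufotalin the count of 3 was 1 (HSPH1) at that limit and in such cells. The share of all genes in these cells was 15%, in place of 32.6%. At the 2-fold limit the share of all genes is not given here. For both pairs TMM gives a count of 3 with another split, 1 higher and 2 lower in the first and 0 higher and 3 lower in the second, beside 8.46% higher and 21.5% lower, and 9.96% and 25%, of all genes. HSPH1 ran from 0.64 to 1.32 and HSPD1 from 0.45 to 1.10 over the 14 settings of the first of these pairs, and from 0.57 to 1.17 and from 0.39 to 0.94 in the second. The median r between members was 0.065, 0.065 and 0.047 with cells thinned to 5000 UMIs. Genes down to 1 CPM give a background of 1.21% in place of 0.246%, and of 43% and 42.8% in place of 37% and 36.8%. Differences between libraries that a replicate would show cannot be judged here.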
